A study of Mus musculus with 14 samples.

Results

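The 4 genes described here, Sdk1, Sdk2, Dscam and Dscaml1, encode the Sidekick and the Dscam adhesion molecules of the mouse. They were taken by name from a table of 41381 genes measured by RNA-seq in granule neuron progenitors (GNPs), the dividing precursors of cerebellar granule neurons, isolated on a percoll gradient from the cerebellum of mice at postnatal day 7. The 14 libraries comprised 5 labelled Chd7 wild type (WT; per the study's methods, mice with floxed Chd7 and no Cre), 5 labelled heterozygous (Het; Atoh1-Cre with 1 floxed and 1 normal Chd7 allele) and 4 labelled homozygous (Hom; Atoh1-Cre with both Chd7 alleles floxed). Chd7 encodes an ATP-dependent chromatin remodeller, and the comparison asks what GNPs express when 1 or both copies are deleted. Atoh1-Cre acts in cells of the rhombic lip lineage, which gives rise to GNPs and other excitatory neurons, and not in Purkinje cells. The mice were not separated by sex. The labels do not say that libraries of a genotype came from separate animals or litters, so every p-value below measures the spread between these libraries. Sequencing took place in 2 batches. Libraries numbered 4 or 5 in WT and Het, and 3 or 4 in Hom, belonged to batch 2, and those with lower numbers to batch 1. The 4 genes were chosen with the Hom against WT values in view, so their differences between Hom and the other genotypes are given as a description, without a p-value, and a mark that a gene passed the threshold there is no independent evidence.

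Sidekicks and Dscams are large single-pass membrane proteins of the immunoglobulin superfamily, with a row of immunoglobulin domains followed by fibronectin type III repeats outside the cell. Each binds copies of itself on a neighbouring cell, and a short C-terminal motif inside the cell is bound by the MAGI scaffold proteins at synapses. They are best known from the retina, where Sidekicks and Dscams steer neurites to particular synaptic layers and Dscams also keep neurites and cell bodies of the same type from clumping.

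In GRCm38 with GENCODE M21, Sdk1 (ENSMUSG00000039683) lies at chr5:141241490-142215586 on the plus strand and Sdk2 (ENSMUSG00000041592) at chr11:113776374-114067046 on the minus strand. Dscam (ENSMUSG00000050272) lies at chr16:96590840-97170752 on the minus strand and Dscaml1 (ENSMUSG00000032087) at chr9:45426628-45753712 on the plus strand. All are long genes, spanning 974.1 kb, 290.7 kb, 579.9 kb and 327.1 kb in that order. Antisense genes overlapped Sdk1 (7 genes), Dscam (3) and Dscaml1 (2), and none was annotated across Sdk2. These overlaps are of whole gene spans, introns included, and overlap of exons was not checked. Where exons overlap, reads from the antisense genes could not be told apart from those of the host gene, since no use of strand in the counting is stated.

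The bases directly upstream of the start sites of the Sidekick paralogs are shown because these 2 genes had the same order of levels in WT and Het libraries and the opposite order in 3 of 4 Hom libraries (below). They are RefSeq sequence of GRCm38.p6, 5′ to 3′ on the strand of the gene, at chr5:141241284-141241489 for Sdk1 (206 bases, plus strand) and chr11:114067047-114067279 for Sdk2 (233 bases, minus strand). Capitals mark the letters CANNTG, the E-box that Atoh1 and other bHLH factors of granule cells are known to bind.
Sdk1: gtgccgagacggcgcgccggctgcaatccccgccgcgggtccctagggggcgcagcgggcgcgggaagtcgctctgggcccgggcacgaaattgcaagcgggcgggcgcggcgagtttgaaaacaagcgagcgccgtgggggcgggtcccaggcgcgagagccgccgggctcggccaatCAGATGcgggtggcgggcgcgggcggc
Sdk2: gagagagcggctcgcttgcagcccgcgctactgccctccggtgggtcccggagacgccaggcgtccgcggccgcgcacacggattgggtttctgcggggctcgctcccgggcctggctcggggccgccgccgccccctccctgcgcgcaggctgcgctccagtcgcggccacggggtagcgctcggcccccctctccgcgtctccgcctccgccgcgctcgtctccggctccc
In the whole 300-base windows (250 bases before the start site and 50 after it, both strands searched), Sdk1 held 1 E-box, and Sdk2 and Dscam held 0. An E-box stood in 72.3% of the 32851 windows of that length. CG dinucleotides numbered 54 for Sdk1, 41 for Sdk2 and 26 for Dscam, against a median of 7 over all windows. A match or its absence describes these letters only.

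Levels are given in TPM (transcript abundance per length, scaled to the same total in every library), as the authors deposited them. The read depth behind a TPM is unknown, and between 15863 and 16734 genes reached 1 TPM in a library. The targeted gene, Chd7, was at 121 to 272 TPM in WT, 137 to 181 TPM in Het and 126 to 185 TPM in Hom libraries. In batch 1 both Hom libraries (172 and 185 TPM) lay above all 3 WT libraries (121, 152 and 132 TPM), against the labels. In batch 2 both Het libraries (149 and 137 TPM) and both Hom libraries (150 and 126 TPM) lay below both WT libraries (203 and 272 TPM), as labelled. The recombined allele can still give reads outside the deleted exons, and the position of the reads was not analysed here. The genotypes below are therefore those of the library labels. All 7 GNP markers examined were detected in every library, with Atoh1 at 20.8 to 50.6 TPM and Barhl1 at 237 to 433 TPM. Markers of other cell types were present too: Purkinje cell markers summed to 146 to 191 TPM in WT 1 to 3 and to 34.2 to 89.3 TPM in the other 11 libraries, and endothelial markers to 19.0 to 31.5 TPM in WT 1 to 3 and Het 3 and to 100 to 403 TPM in the other 10. Fewer cells of a type and less RNA per cell cannot be told apart in such bulk samples.

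Each of the 4 genes was expressed at a low level, above 1 TPM in all 14 libraries. In WT, Dscaml1 averaged 11.0 ± 5.16 TPM (SD, n = 5), Dscam 6.62 ± 1.66, Sdk1 6.40 ± 1.08 and Sdk2 1.95 ± 0.627. Of the 17325 genes tested, 41.6%, 33.4%, 32.9% and 15.2% had a lower WT mean in that order. Dscam and Sdk1 did not differ beyond their spread in WT, where Sdk1 was the higher of them in 3 of 5 libraries. Dscaml1 stood first in 14 of 14 libraries, and Sdk2 stood last in every WT and Het library.

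Sdk2, the smaller of the Sidekick genes by span, changed most. It was at 1.73, 1.64, 1.42, 3.02 and 1.94 TPM in WT 1 to 5. Het 1 to 5 had 3.96, 3.14, 2.69, 2.76 and 3.36 TPM. Hom 1 to 4 had 8.06, 7.96, 8.49 and 11.4 TPM. Every Hom library lay above every Het and WT library, and the Het and WT libraries overlapped through WT 4 alone, which was above Het 3 and Het 4. The means were 3.18 ± 0.515 TPM in Het (n = 5) and 8.98 ± 1.64 TPM in Hom (n = 4).

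Sdk1, its paralog, moved less and overlapped between all genotypes. WT 1 to 5 had 5.06, 7.07, 5.95, 7.86 and 6.08 TPM. The Het libraries were at 6.04, 6.41, 6.81, 6.51 and 9.29 TPM, and the Hom libraries at 9.69, 7.45, 8.05 and 10.7 TPM. In Hom, 3 libraries lay above all WT libraries and Hom 2 lay below WT 4, while Het 5 alone of its genotype lay above the WT range. The Het and Hom means were 7.01 ± 1.30 and 8.98 ± 1.502 TPM, the latter level with the Sdk2 mean in Hom.

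**Figure D1:**
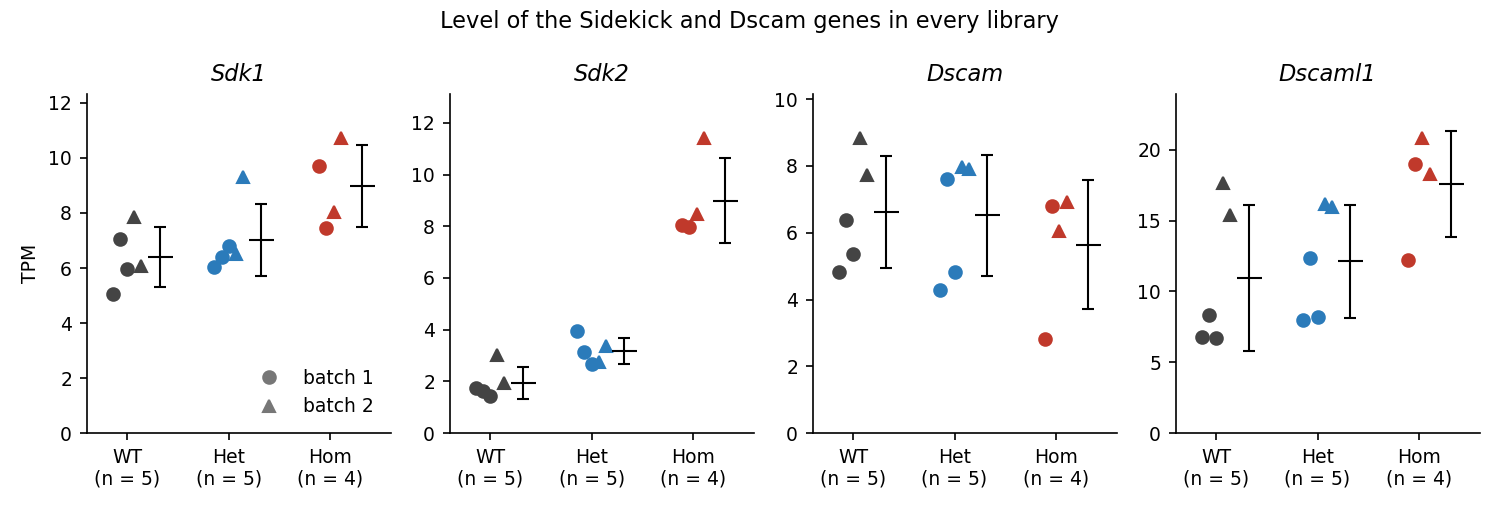
TPM (vertical axis, from 0, with its own scale for each gene) of Sdk1, Sdk2, Dscam and Dscaml1 in every library, by genotype label; circles are batch 1, triangles batch 2, and black bars the mean ± SD. The 4 Hom libraries sit between 7.96 and 11.4 TPM for Sdk2, above all other libraries, while the genotypes overlap for the other 3 genes.

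Dscam, which in flies and vertebrates serves self-avoidance of neurites, was lowest in Hom on average but not by more than its spread. It was at 4.81, 6.38, 5.35, 8.84 and 7.72 TPM in WT 1 to 5 and at 4.29, 7.62, 4.82, 7.96 and 7.92 TPM in Het 1 to 5. Hom 1 to 4 had 2.81, 6.80, 6.05 and 6.91 TPM. Hom 1 was the lowest of all 14 libraries, and the other 3 Hom libraries lay inside the WT range of both batches together. Within batch 1, Hom 1 lay below WT 1 to 3 and Hom 2 above them. Within batch 2, both Hom libraries (6.05 and 6.91 TPM) lay below both WT libraries (8.84 and 7.72 TPM) and both Het libraries (7.96 and 7.92 TPM). Hom 1 also had the lowest oligodendroglial marker sum of all libraries, 517 TPM, against 1125 to 1235 TPM in the other Hom libraries. Its inhibitory interneuron marker sum was the lowest as well, 205 TPM against 237 to 298 TPM in the other Hom libraries. WT 1 and Het 1 were close to it in this sum, at 207 and 219 TPM, with Dscam at 4.81 and 4.29 TPM. Pdgfra, of the oligodendroglial list, did not follow its sum, at 101 TPM in Hom 1 and 80.5 to 115 TPM in the other Hom libraries. The part of these cells in the Dscam level of Hom 1 was not tested. The Het mean was 6.52 ± 1.81 and the Hom mean 5.64 ± 1.93 TPM.

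Dscaml1, the second vertebrate Dscam, split by batch as well as by genotype label. WT 1 to 3 had 6.78, 8.32 and 6.71 TPM, whereas WT 4 and 5 of batch 2 had 17.6 and 15.4 TPM. Het 1 to 3 had 8.01, 12.3 and 8.17 TPM, and Het 4 and 5 had 16.2 and 15.9 TPM. Hom 1 to 4 had 12.2, 19.0, 20.8 and 18.3 TPM, so 3 of them were above every WT and Het library and Hom 1 was not. The Het and Hom means were 12.1 ± 3.99 and 17.6 ± 3.74 TPM.

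Changes between genotypes were estimated with limma on log2(TPM + 1) over the 17325 genes at 1 TPM or more in at least 4 libraries, with the batch as a term, and a gene is named called where its Benjamini-Hochberg adjusted p is under 0.05. The 1 added to each TPM makes changes of low genes such as Sdk2 smaller than the ratio of their TPM values. Hom against WT, the log2 change was 1.75 for Sdk2 (SE 0.16, 95% interval 1.41 to 2.09), the 22nd highest change of all genes tested. It was 0.64 for Dscaml1 (SE 0.18, 0.26 to 1.02), 0.41 for Sdk1 (SE 0.14, 0.11 to 0.71) and -0.28 for Dscam (SE 0.20, -0.70 to 0.14). Sdk2 was the 1 of the 4 genes called, beside 2.68% of all genes tested, and the 1 with Hom libraries that did not overlap the WT libraries, beside 4.87%. Sdk2 was not called in batch 2 alone, which held 6 libraries. Since this comparison chose the genes, these counts carry no weight of their own. The size of the Dscam change moved with single Hom libraries: it was -0.08 without Hom 1 and -0.49 without Hom 2. In batch 2 alone, which holds neither of these libraries, it was -0.31 (SE 0.18).

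Hom against Het, which uses the same Hom libraries, Sdk2 differed by 1.23 on the log2 scale (SE 0.16), Dscaml1 by 0.46 (SE 0.18), Sdk1 by 0.30 (SE 0.14) and Dscam by -0.25 (SE 0.20). Sdk2 was again the 1 gene called of 4 (0.427% of all genes tested) and the 1 without overlap (2.16%). That call was lost in either batch alone and with the replicate number as a block, where the change was 1.09, 1.42 and 1.21 on the log2 scale.

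Het against WT was not used to choose the genes, though it shares the WT libraries with Hom against WT. None of the 4 genes was called by limma, where 0.00577% of all genes tested (1 gene) were called, and 1 of the 4, Sdk2, had an unadjusted p under 0.05, as did 6.08% of all genes tested. Sdk2 was higher in Het by 0.52 on the log2 scale (SE 0.15, 95% interval 0.20 to 0.84, limma adjusted p = 0.518). Dscaml1 differed by 0.18 (SE 0.16, limma adjusted p = 0.899), Sdk1 by 0.11 (SE 0.13, adjusted p = 0.922) and Dscam by -0.03 (SE 0.18, adjusted p = 0.989). The Het and WT libraries overlapped for all 4 genes, beside 1.04% of all genes tested without overlap. For Dscam the 95% interval of the Het difference ran from -0.42 to 0.37, so that changes of that size in either direction cannot be told from none.

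Between batches, 1 of the Dscam genes and neither Sidekick gene passed the test. Dscaml1 rose in batch 2 against batch 1 by 0.74 on the log2 scale (SE 0.14, limma adjusted p = 0.00627). Dscam was higher in batch 2 by 0.48 (SE 0.16, limma adjusted p = 0.0585) and missed the threshold. The values were 0.20 for Sdk2 (adjusted p = 0.320) and 0.19 for Sdk1 (adjusted p = 0.303). Dscaml1 was thus the 1 gene called of 4, beside 13.5% of all genes tested.

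Within batches, the Sdk2 change from WT to Hom was much the same, 1.80 in batch 1 and 1.66 in batch 2. Those of Sdk1 were 0.45 and 0.38, and those of Dscam -0.25 and -0.31. For Dscaml1 the change was 0.98 in batch 1 and 0.23 in batch 2, a difference of -0.75 (SE 0.31, limma adjusted p = 0.253). In batch 1 both Hom libraries were above all WT libraries for Dscaml1, and in batch 2 the Hom libraries (20.8 and 18.3 TPM) were also above both WT libraries (17.6 and 15.4 TPM), by less. None of the 4 genes was called by limma in the test of a Hom effect that differed between batches (0.0115% of all genes tested called; 1 of the 4, Dscaml1, had an unadjusted p under 0.05, beside 17.2% of all genes tested).

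The Het effect on Sdk2 was 0.71 in batch 1 and 0.24 in batch 2, and the difference between these was -0.47 (limma adjusted p = 0.632). In batch 1 the 3 Het libraries lay above the 3 WT libraries, and in batch 2 WT 4 lay between the Het libraries. For Dscaml1 the Het effect was 0.33 and -0.03. No Het effect of the 4 genes differed between batches by limma (0.00577% of all genes tested called), and 0 of the 4 had an unadjusted p under 0.05, beside 9.3% of all genes tested.

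**Figure D2:**
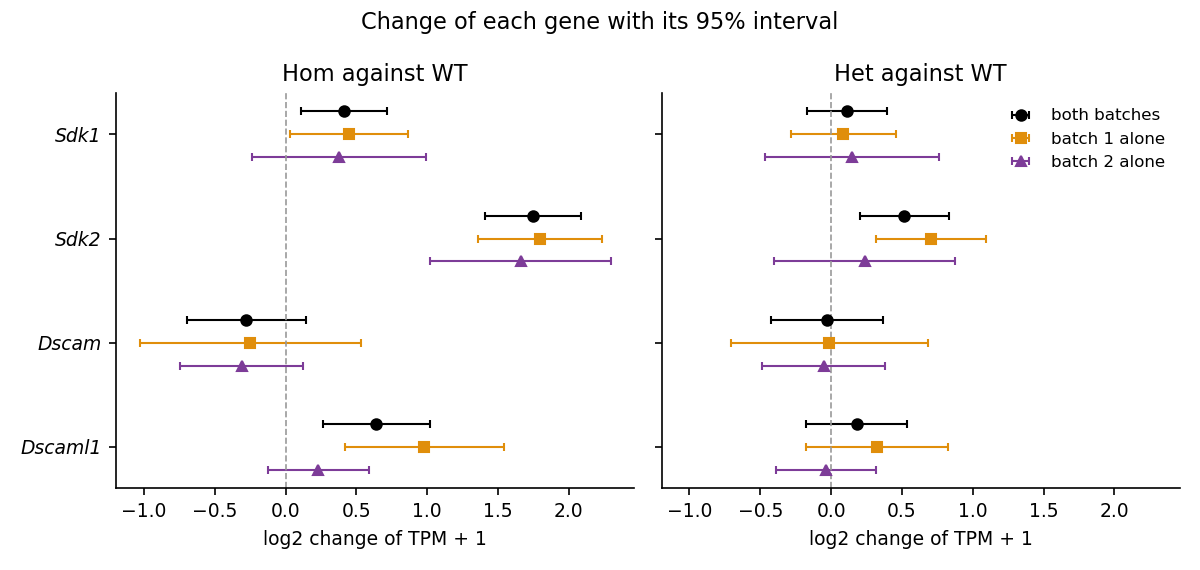
Change on the log2(TPM + 1) scale (horizontal axis) of each gene for Hom against WT (left) and Het against WT (right), with 95% intervals, over both batches (black) and in each batch alone (orange squares, batch 1; purple triangles, batch 2). Sdk2 stands at 1.75, 1.80 and 1.66 in the left panel, while Dscaml1 goes from 0.98 in batch 1 to 0.23 in batch 2.

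Set against each other within a library, the paralogs stood in other proportions in Hom than in WT and Het. The genes were chosen with the Hom against WT values in view. How many other gene pairs have ratios that separate Hom was not counted, so the ratios are a description. The TPM ratio of Sdk2 to Sdk1 was 0.342, 0.232, 0.239, 0.384 and 0.319 in WT 1 to 5 and 0.656, 0.490, 0.395, 0.424 and 0.362 in Het 1 to 5. In Hom 1 to 4 it was 0.832, 1.07, 1.05 and 1.06. The Hom ratios lay above all others, and Sdk1 was the higher paralog in 5 of 5 WT, 5 of 5 Het and 1 of 4 Hom libraries. The mean ratio was 0.303 ± 0.0662 in WT (n = 5), 0.465 ± 0.116 in Het (n = 5) and 1.005 ± 0.115 in Hom (n = 4).

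The ratio of Dscaml1 to Dscam was 1.41, 1.30, 1.25, 1.99 and 1.99 in WT 1 to 5 and 1.87, 1.62, 1.70, 2.03 and 2.01 in Het 1 to 5. Hom 1 to 4 had 4.35, 2.79, 3.44 and 2.65, again above all other libraries, although neither gene alone separated Hom from WT. Here too the genes were chosen with Hom in view, and the share of gene pairs that do the same is unknown. The highest ratio, in Hom 1, came with the lowest Dscam level. In WT the ratio was higher in both batch 2 libraries than in the 3 of batch 1. Sdk2 passed Dscam as well, in 4 of 4 Hom libraries and in 0 of 5 WT and 0 of 5 Het libraries.

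**Figure D3:**
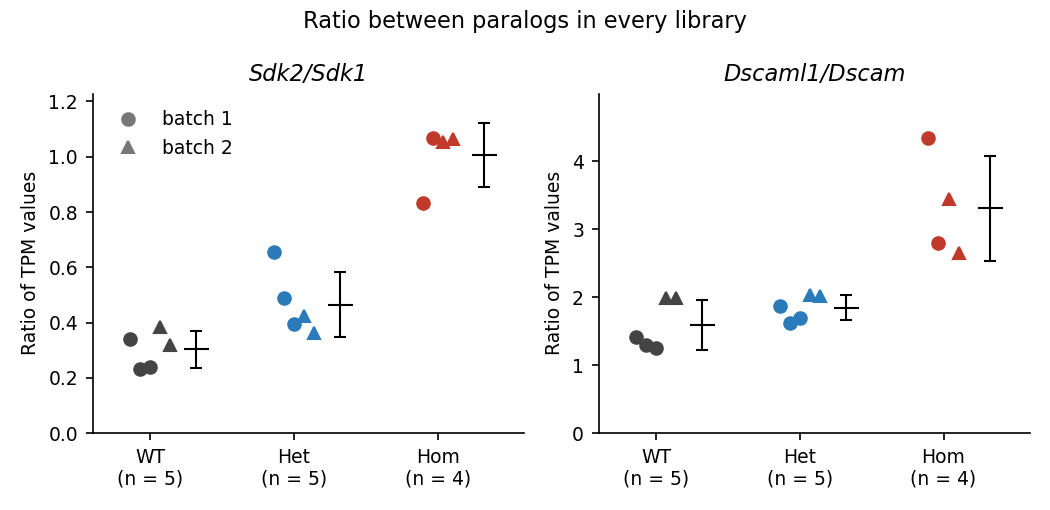
Ratio of TPM values (vertical axes, from 0) of Sdk2 to Sdk1 (left) and of Dscaml1 to Dscam (right) in every library, by genotype label; circles are batch 1, triangles batch 2, and black bars the mean ± SD. The Hom libraries sit at 0.832 to 1.07 for the Sidekicks and at 2.65 to 4.35 for the Dscams, above all WT and Het libraries.

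After the batch difference was taken out, Sdk2 followed Sdk1 (Pearson's r = 0.742) and Dscaml1 (r = 0.734) over the 14 libraries. Dscam ran against both Sidekicks (r = -0.334 with Sdk1 and -0.397 with Sdk2) and was close to unrelated to Dscaml1 (r = 0.141). These are descriptions, because the libraries share their genotype groups and the genes were chosen on them.

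Markers of other cell types went with or against Dscaml1 and Sdk2 over the 14 libraries, on the log2 scale without batch adjustment. Purkinje cell and astroglial sums ran against Dscaml1 (Pearson's r = -0.834 and -0.754) and Sdk2 (r = -0.667 and -0.623). For the astroglial sum this was weaker in batch 2. In batches 1 and 2, r was -0.740 and -0.304 for Dscaml1 and -0.898 and -0.159 for Sdk2. For the Purkinje cell sum, r in a single batch was -0.824 to -0.611 for these genes. The endothelial sum ran with both (r = 0.804 for Dscaml1 and 0.622 for Sdk2). WT 1 to 3, with the highest Purkinje cell sums (146 to 191 TPM), had 6.71 to 8.32 TPM of Dscaml1. Pcp2, a Purkinje cell gene, was at 18.5 to 30.6 TPM in these libraries, at 15.1 TPM in Het 3 and at 0 to 5.16 TPM elsewhere. Rora, of the same list, did not follow it, at 8.05 to 9.15 TPM in WT 1 to 3 and at 6.15 to 16.8 TPM in the other libraries. WT 1 to 3 and Het 3 also had the lowest endothelial sums (19.0 to 31.5 TPM), with Cldn5, the claudin of brain capillaries, at 5.39 to 14.03 TPM against 50.4 to 229 TPM in the other 10 libraries, where Dscaml1 was at 8.01 to 20.8 TPM. All 5 endothelial and all 7 Purkinje markers examined were at least detectable in WT 1 to 3. Astroglial markers summed to 1095 to 1736 TPM in WT 1 to 3, to 357 and 801 TPM in WT 5 and 4, to 518 to 1064 TPM in Het and to 281 to 615 TPM in Hom. The part of these cells in the Dscaml1 values was not tested.

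**Figure D4:**
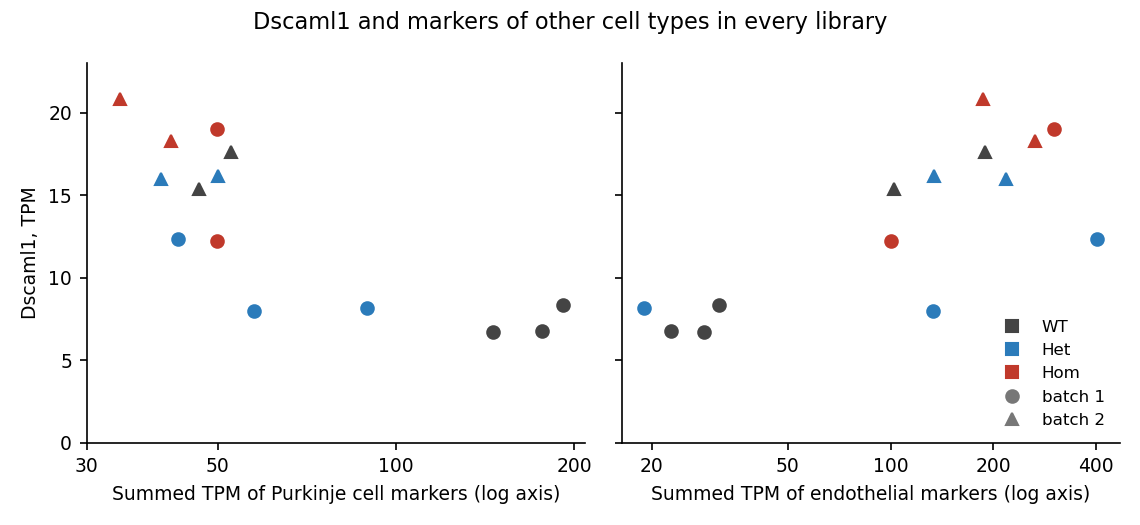
Dscaml1 in TPM (vertical axis, from 0) against the summed TPM of Purkinje cell markers (left) and endothelial markers (right; both on log axes) in every library; grey is WT, blue Het and red Hom, circles are batch 1 and triangles batch 2. WT 1 to 3 sit at 6.71 to 8.32 TPM of Dscaml1 with the 3 highest Purkinje sums, 146 to 191 TPM.

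WT 1 to 3 also held the 3 lowest Sdk2 levels, 1.42 to 1.73 TPM. In batch 2, Sdk2 was at 1.94 and 3.02 TPM in WT and at 8.49 and 11.4 TPM in Hom. The Purkinje sums there were 46.5 to 52.6 TPM in WT and 34.2 to 41.6 TPM in Hom, which did not overlap, and the endothelial sums 102 to 190 TPM in WT and 187 to 266 TPM in Hom, which did. Astroglial sums overlapped as well, at 357 and 801 TPM in WT and 281 and 615 TPM in Hom.

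Markers of the granule lineage itself differed too. Granule neuron markers, which mark the postmitotic progeny of GNPs, summed in batch 1 to 1442 to 1597 TPM in WT and to 1272 and 1363 TPM in Hom, and in batch 2 to 1863 and 1985 TPM in WT and to 1161 and 1515 TPM in Hom. In each batch the Hom sums were thus below the WT sums of that batch, while Sdk2 was above all WT levels. Neurod1, the largest part of the WT sums, was at 679 to 1032 TPM in WT and at 501 to 596 TPM in Hom. Cbln1 was lower in Hom as well, at 114 to 146 TPM against 158 to 218 TPM. Cntn2 (454 to 578 TPM in WT, 411 to 645 TPM in Hom) and Rbfox3 overlapped. Grin2c went the other way, from 0.32 to 0.74 TPM in WT to 2.21 to 4.89 TPM in Hom. Of the 5 granule neuron markers tested, 2 fell and 1 rose Hom against WT (limma, adjusted p under 0.05, beside 2.68% of all genes tested). The marker lists were chosen with earlier results of these data known, so this count is a description. GNP markers summed in batch 2 to 2949 and 3081 TPM in WT and to 2384 and 2708 TPM in Hom, while in batch 1 both Hom sums (2305 and 2427 TPM) were above the WT sums (2121 to 2200 TPM). The GNP markers did not move together. Ccnd2 was at 323 to 355 TPM in WT and at 375 to 494 TPM in Hom. Pax6 was lower in Hom in batch 1 (575 and 584 TPM, WT 612 to 628 TPM) and in batch 2 (613 and 551 TPM, WT 766 and 911 TPM). Inhibitory interneuron markers summed to 207 to 367 TPM in WT and to 205 to 298 TPM in Hom, and within WT the highest sums were in WT 4 and 5, the WT libraries with the most Dscam and Dscaml1. The markers of this list did not move together. Lhx1, the largest part of the sum, was at 122 to 220 TPM in WT and 106 to 134 TPM in Hom. In batch 1, Pax2 was at 16.4 to 20.3 TPM in WT and at 20.4 and 38.6 TPM in Hom. Tfap2b was there at 15.6 to 17.8 TPM in WT and at 20.9 and 36.3 TPM in Hom. In batch 2, Pax2 and Tfap2b overlapped. The part of any of these cells in the Sdk2 and Dscam values was not tested.

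The genes whose pattern was most like each member, by Pearson's r of batch-adjusted log2(TPM + 1) over 14 libraries, differed between the 4. Because they were picked by this likeness, they share the genotype pattern of their member by selection. Sdk2 was followed by Gpr153 (r = 0.963), Antxr1 (0.956), Slit1 (0.949), Adamts14 (0.947) and Col28a1 (0.947). Slit1, a secreted axon repellent, went from a mean of 1.11 TPM in WT and 3.67 TPM in Het to 26.1 TPM in Hom, a step up at each genotype label as for Sdk2. Antxr1, a cell surface receptor of the anthrax toxin, went from 8.74 through 11.7 to 23.1 TPM.

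Sdk1 was most like Spon2 (r = 0.934), Col22a1 (0.928), Jsrp1 (0.902), Ssc5d (0.891) and Epb41l3 (0.889). Spon2, a secreted matrix protein, had means of 1.85, 2.32 and 5.29 TPM in WT, Het and Hom. Dscaml1 was most like Megf11 (r = 0.956), Grik3 (0.953), Asic1 (0.936), Lpin2 (0.931) and Trub1 (0.929). Megf11, itself a homophilic recognition molecule of retinal mosaics, had means of 27.3, 31.96 and 54.9 TPM. Dscam was most like Lrrtm3 (r = 0.923), Brinp3 (0.919), Brinp1 (0.915), Cadm2 (0.908) and Pid1 (0.900). These had lower Hom than WT means, as Dscam did, with log2 changes of -0.46 for Brinp1 to -0.13 for Pid1.

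Related genes are counted beside the 2.68% of all genes tested that were called Hom against WT. All the lists were chosen with earlier results of these data known. Their counts and p-values Hom against WT are therefore a description and carry no weight of their own. Of the 3 MAGI scaffolds, 0 were called Hom against WT by limma and 1 had an unadjusted p under 0.05, as did 14.9% of all genes tested. Magi3 differed by 0.31 on the log2 scale (adjusted p = 0.138), Magi1 by 0.05 and Magi2 by -0.10. Of 6 genes known to bind or signal with Dscam, 1 fell and 1 rose (2 of 6 called, beside 2.68%), with a median change of 0.05 against 0.02 over all genes tested. Ntn1, the netrin ligand, rose by 0.42 (SE 0.09, limma adjusted p = 0.0171), and Unc5c, a repulsive netrin receptor, fell by 0.75 (SE 0.16, adjusted p = 0.0206). Dcc, the attractive netrin receptor, differed by 0.35 (adjusted p = 0.103).

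Among 24 other immunoglobulin superfamily adhesion molecules of synapses, 2 fell and 3 rose Hom against WT (5 of 24 called, beside 2.68%), with a median change of -0.04. Alcam, an adhesion molecule of growing axons, fell by 1.13 on the log2 scale (SE 0.13, limma adjusted p = 3.27e-04), and Cadm3 fell by 0.34 (adjusted p = 0.0461). Nectin1 rose by 0.50 (limma adjusted p = 0.0176), Ntm by 0.46 (adjusted p = 0.0267) and Cadm1 by 0.37 (adjusted p = 0.0231). Of 26 tested synaptic organisers of other families (28 listed), 2 fell and 1 rose (3 of 26 called, beside 2.68%), with a median of -0.04. These were Slitrk5 at -0.81 (limma adjusted p = 4.83e-05), Flrt3 at -0.70 (adjusted p = 0.0353) and the teneurin Tenm4 at 0.82 (adjusted p = 0.0141). Het against WT, 0 genes were called by limma in any of the 4 lists, where 0, 2, 1 and 3 members, in the order given, had an unadjusted p under 0.05, beside 6.08% of all genes tested.

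**Figure D5:**
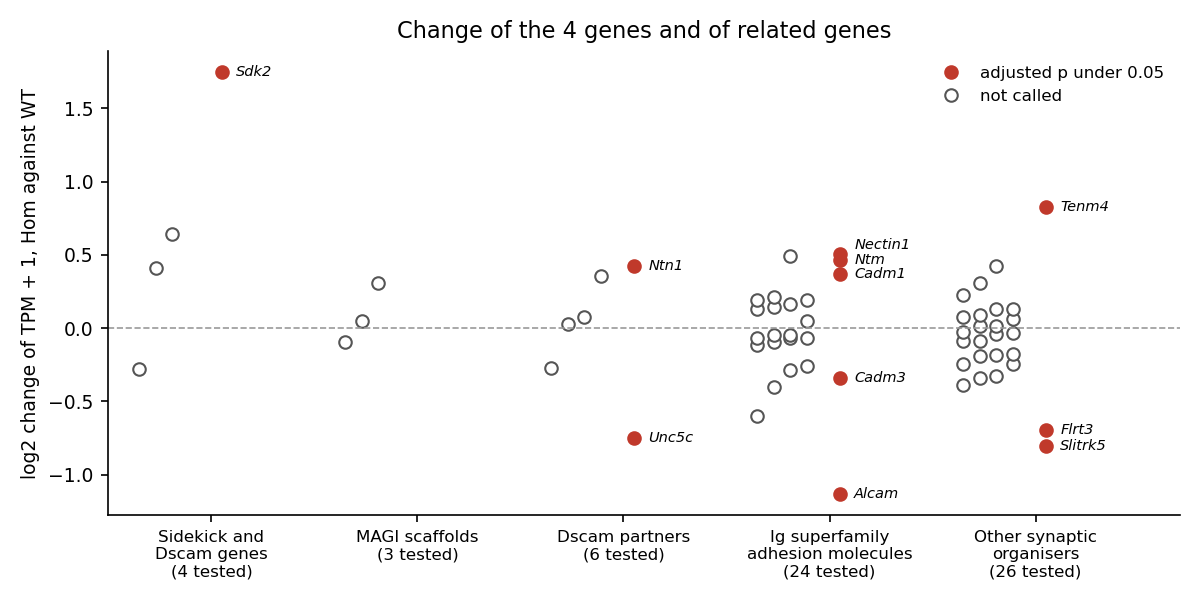
Change on the log2(TPM + 1) scale Hom against WT (vertical axis) of the 4 genes and of the related genes, 1 point a gene, grouped by list with the number tested; filled points are genes with a limma adjusted p under 0.05. Sdk2 stands at 1.75, above all related genes shown, and Alcam lowest at -1.13.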

How the data were processed

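Total RNA of 14 GNP preparations was sequenced as 50-base single-end reads. Per the labels and the study's methods, the authors aligned reads with Bowtie 1.0.0, quantified transcripts with RSEM 1.2.15 on mm10 and deposited 1 table of TPM values per gene; no read counts were used here, so no counting interval is given. Columns were matched to libraries by genotype and number, and 0 columns of values were left unused. The study's methods name the batches and a ComBat adjustment; the deposited TPM values still differed by batch. TPM values were analysed as log2(TPM + 1) with limma 3.58.1 in R 4.3.3 (linear model with genotype and batch, moderated with trend), over 17325 genes at 1 TPM or more in at least 4 libraries, with Benjamini-Hochberg adjustment. The scripts were tested on simulated data. The 4 genes, the related lists and the marker lists were chosen with earlier results of these data known. Beside the 4 genes, the text names the 5 genes most like each (predicted genes left out), the called genes of each related list, the MAGI scaffolds in full and Chd7; Dcc and the marker genes were named after their values were seen. Alternatives were another pseudocount, other filters on low values, median-ratio and quantile scaling, no batch term, each batch alone, the deposit block in place of the batch, the replicate number as a block and leaving out each library. Sequence windows came from RefSeq, which gave 3 of the 4 genes.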

Additional observations from a re-analysis of the deposited data

Results flagged for a closer look

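In 2 of the 12 sets of libraries of 1 gene and 1 genotype label, 1 library stood apart from the rest. Its gap to the nearest library, divided by the range, was over the limit of 0.710 for 5 libraries or 0.829 for 4. Gap and range were taken on the log2(TPM + 1) scale, so they are not those of the TPM values printed here. Chance gives this in about 1 of 20 sets. Sdk1 was highest in Het 5, at 9.29 TPM against 6.04 to 6.81 TPM in the other Het libraries (gap over range 0.727). Without Het 5, the Sdk1 difference Het against WT was 0.04 on the log2 scale in place of 0.11. Dscam was lowest in Hom 1, at 2.81 TPM against 6.05 to 6.91 TPM in the other Hom libraries (gap over range 0.842). Without Hom 1, the Dscam difference Hom against WT was -0.08 in place of -0.28, and without Hom 2, the second highest of them, it was -0.49.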

How the results depend on the processing

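The Hom against WT changes of the 4 genes kept their direction under every alternative and with each library left out. That of Sdk2 was 2.15 with a pseudocount of 0.1 (the smaller pseudocount compresses low values less) and 1.67 to 1.86 with a library left out, and Sdk2 lost its call in batch 2 alone (6 libraries). Hom against Het, Sdk2 was not called in batch 1 alone (1.09), batch 2 alone (1.42) or with the replicate block (1.21). A filter at a mean of 5 TPM left Sdk2 out, so it has no value there. Dscaml1 Hom against WT was 0.98 in batch 1 alone and 0.23 in batch 2 alone. Het against WT it was -0.035 in batch 2 alone, a reversal. With a library left out, Dscam ran from -0.49 (without Hom 2) to -0.08 (without Hom 1) Hom against WT, from -0.46 to -0.05 Hom against Het (the same libraries) and from -0.14 to 0.046 Het against WT, and Dscaml1 Hom against Het ran from 0.26 (without Hom 2) to 0.56. Dscaml1 against batch was 0.60 with the deposit block in place of the batch (adjusted p = 0.0791; the block differs in Het 3), and Dscam against batch ran from 0.37 to 0.60 with a library left out, called without Het 2 (adjusted p = 0.0282) or Hom 2 (adjusted p = 0.0160). With a library left out, the differences of the Hom effect between batches ran from -0.25 to 0.12 for Sdk1, -0.36 to 0.088 for Sdk2, -0.58 to 0.46 for Dscam and -1.05 to -0.45 for Dscaml1, and those of the Het effect from -0.16 to 0.29 for Sdk1, -0.70 to -0.24 for Sdk2, -0.18 to 0.17 for Dscam and -0.46 to -0.18 for Dscaml1.

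Genes called Hom against WT numbered 465, against 162 in batch 1 alone, 4 in batch 2 alone, 259 with the replicate block and 287 (without Hom 1) to 489 with a library left out; without Hom 4 it was 298. Het against WT it was 1 gene, against 3 with the pseudocount of 0.1 or in batch 1 alone, 2 with no batch term or in batch 2 alone, 0 with all genes above 0, the mean filter, quantile scaling or the replicate block, and 0 to 13 with a library left out. Hom against Het it was 74, against 41 with no batch term, 11 in batch 1 alone, 2 in batch 2 alone, 18 with the replicate block and 28 to 74 with a library left out. Between batches it was 2338, against 715 with the deposit block and 1388 (without WT 4) to 2617 with a library left out; without WT 3 it was 1520. For a Hom effect that differed between batches it was 2, against 0 with the pseudocount of 0.1, 1 with median-ratio scaling and 0 to 35 with a library left out; for the Het effect it was 1, against 2, 0 and 0 to 39. The causes were not tested. The replicate numbers did not pair the libraries (residual correlations of same-numbered libraries from -0.235 to 0.264; a library correlated best with its own number in 5 of 26 comparisons), and the replicate block changed no other call of the 4 genes. The number of libraries limits the precision, and the read depth is unknown.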
